A study of Mus musculus with 16 samples.

Results

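The keratins, the desmosome proteins and the proteins of the cornified envelope were followed in the melanomas of 2 inducible mouse models and in melanocytes. Members were the genes whose probe sets carry a single symbol beginning with Krt and a digit, together with 15 epithelial genes chosen by name: Dsp, Dsg3, Dsc2, Dsc3, Pkp1, Jup, Perp, Lor, Ivl, Flg, Evpl, Ppl, Trp63, Sfn and Epcam. Dsg3 was not analysed here, which left 54 of 12393 genes: 40 keratins and 14 others. Each gene is read by 1 probe set, the brightest on average over the 16 arrays, and 10 of the 54 members have further probe sets. All values are log2 signal after quantile normalization, so a step of 1 is a doubling of signal, and a value is called above the cutoff when it exceeds log2 6.21, the 40th percentile of all values.

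The arrays were Affymetrix M430A_2 and held 3 groups. Melanocytes without disease gave 4 arrays, and their genotype, strain, age and culture are not given in the sources used here. The iMet melanomas, 6 arrays, came from Ink4a/Arf-/- mice with the transgenes Tyr-rtTA and Tet-Met. The iHRAS* melanomas, called iRas in the sample titles, gave the other 6 and came from Ink4a/Arf-/- mice with Tyr-rtTA and Tet-HRASV12G. In both models a transactivator under the tyrosinase promoter, active in the melanocyte lineage, switches on the oncogene when tetracycline or a relative is given; strain, age and length of induction are not given in the sources used here. The study compared the models because they were taken to differ in the ability to metastasize. Sample labels speak of isolated melanoma cells and the design text of RNA from tumours, and which was hybridised is not settled here. Nothing says that the arrays of a group came from separate animals or cultures, so p-values here take as error only the scatter from array to array, which may be technical.

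Keratins are intermediate filament proteins of epithelial cells, and each filament needs an acidic (type I) and a basic (type II) partner. Basal cells of the epidermis carry Krt5 with Krt14, cells of the upper layers replace them with Krt1 and Krt10, wounded or rapidly growing epidermis adds Krt6 with Krt16 and Krt17, and simple, single-layered epithelia carry Krt8 with Krt18. Desmosomes anchor keratin filaments at cell contacts, and the cornified envelope is the cross-linked protein shell of dead surface cells. Melanocytes arise from the neural crest, sit among basal keratinocytes and are not known as a keratin-rich cell type.

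The genes of the 2 keratin types lie in 2 clusters, and of the 40 keratin members 19 lie on chromosome 11 and 21 on chromosome 15. Krt18 is the type I keratin that lies in the chromosome 15 cluster, where the coding genes next to it are Krt8 and Eif4b. RefSeq promoters on build GRCm38.p6 matched 32 of the 54 members by symbol. Those of Krt5, Krt10, Krt8 and Krt18 are shown because these genes stand for the basal, upper layer and simple classes described in turn: each run holds the 250 bases before the start of the gene, read 5′ to 3′ on the strand of the gene, and capitals mark the TATA box TATAAA, its variant ATAAAA or the AP-2 motif GCCNNNGGC. Krt5 lies at chr15:101712906-101713155, Krt10 at chr11:99389365-99389614 and Krt8 at chr15:102004343-102004592, all on the minus strand, and Krt18 at chr15:102027966-102028215 on the plus strand.

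Krt5: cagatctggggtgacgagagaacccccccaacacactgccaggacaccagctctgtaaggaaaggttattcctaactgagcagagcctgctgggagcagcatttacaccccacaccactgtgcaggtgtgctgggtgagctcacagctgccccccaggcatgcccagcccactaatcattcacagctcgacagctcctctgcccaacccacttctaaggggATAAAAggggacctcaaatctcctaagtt

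Krt10: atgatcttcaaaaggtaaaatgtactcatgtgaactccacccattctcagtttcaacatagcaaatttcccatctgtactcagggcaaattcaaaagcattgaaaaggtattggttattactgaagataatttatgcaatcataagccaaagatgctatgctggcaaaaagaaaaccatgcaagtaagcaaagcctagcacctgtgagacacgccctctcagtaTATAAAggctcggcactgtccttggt

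Krt8: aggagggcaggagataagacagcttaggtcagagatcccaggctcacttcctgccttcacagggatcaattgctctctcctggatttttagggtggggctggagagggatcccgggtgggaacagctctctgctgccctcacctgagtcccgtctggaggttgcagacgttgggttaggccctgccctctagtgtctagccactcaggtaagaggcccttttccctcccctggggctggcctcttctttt

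Krt18: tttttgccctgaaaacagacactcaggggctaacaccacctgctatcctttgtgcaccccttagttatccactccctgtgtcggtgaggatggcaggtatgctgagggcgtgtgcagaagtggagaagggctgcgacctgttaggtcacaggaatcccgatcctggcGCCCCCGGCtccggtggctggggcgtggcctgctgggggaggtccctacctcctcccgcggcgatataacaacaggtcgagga

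The Krt5 run holds ATAAAA 29 to 24 bases before the start and the Krt10 run holds TATAAA 26 to 21 bases before it. The Krt18 run holds GCCCCCGGC 83 to 75 bases before the start, and the Krt8 run holds none of the 5 motifs searched. Those motifs, each sought on both strands, were TATAAA, the variant ATAAAA, the AP-1 motif TGANTCA, the GC box GGGCGG and GCCNNNGGC; TATAAA and ATAAAA overlap wherever TATAAAA occurs. TATAAA occurred in 15 of the 33 promoters of the matched members (45.5%) and in 12.4% of all 32851 promoters, and ATAAAA in 17 of 33 (51.5%) and in 17% of all. GGGCGG occurred in 5 of the 33 (15.2%) and in 32.7% of all, TGANTCA in 5 (15.2%) and 6.75%, and GCCNNNGGC in 3 (9.09%) and 13.7%. A match describes the letters alone and is no evidence of binding.

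The arrays labelled melanocyte carried little of the pigment programme: of 10 melanocyte markers measured, Tyr, Tyrp1, Dct, Mitf, Oca2, Ednrb and Kit were below the cutoff on all 4 arrays, while Sox10 lay at 9.04 to 10.41, Pmel at 6.43 to 7.05 and Slc45a2 at 6.89 to 7.22. In the tumours 5 of the 10 were below the cutoff on all 6 iMet arrays and 1 on all 6 iHRAS* arrays, 2 and 3 were above it on all, the mean over the list was 5.42 in melanocytes, 5.69 in iMet and 6.42 in iHRAS* tumours, and Sox10 lay at 6.08 to 7.66 and 9.45 to 11.44. Of 12 keratinocyte markers, 7 were above the cutoff on all 4 of these arrays, 0 on all 6 iMet arrays and 9 on all 6 iHRAS* arrays; 11 of the 12 are themselves members, so this list is not independent of the values below. The mean log2 signal of 10 fibroblast markers was 7.42 to 10.64 in melanocytes, 10.58 to 11.59 in iMet and 10.75 to 11.61 in iHRAS* tumours, and that of 10 macrophage markers 4.53 to 5.02, 10.69 to 11.40 and 9.0 to 10.92. The 10 endothelial markers averaged 4.09 to 5.18, 7.36 to 9.07 and 6.70 to 7.68. The part of these other cell types in the results on keratins was not tested. In bulk samples fewer cells of a type and less RNA per cell cannot be told apart.

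Between 19 and 22 of the 54 members were above the cutoff on a melanocyte array, 7 to 24 on an iMet array and 24 to 29 on an iHRAS* array. The mean over all members was 5.65 ± 0.51 (SD, n = 4) in melanocytes, 5.37 ± 0.82 (SD, n = 6) in iMet tumours and 6.52 ± 0.44 (SD, n = 6) in iHRAS* tumours. Over all members the iMet tumours were the least alike: iMet arrays 1 and 4 had 10 and 7 members above the cutoff, and iMet arrays 2 and 6 had 24 each. This did not hold for every class. The means of the simple, mucosal and corneal, inner root sheath and hair shaft keratins had a larger SD among iHRAS* arrays. Among the iMet arrays the highest value of a member fell on array 6 in 22 of 54 members, and the lowest on array 4 in 15.

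**Figure D1:**
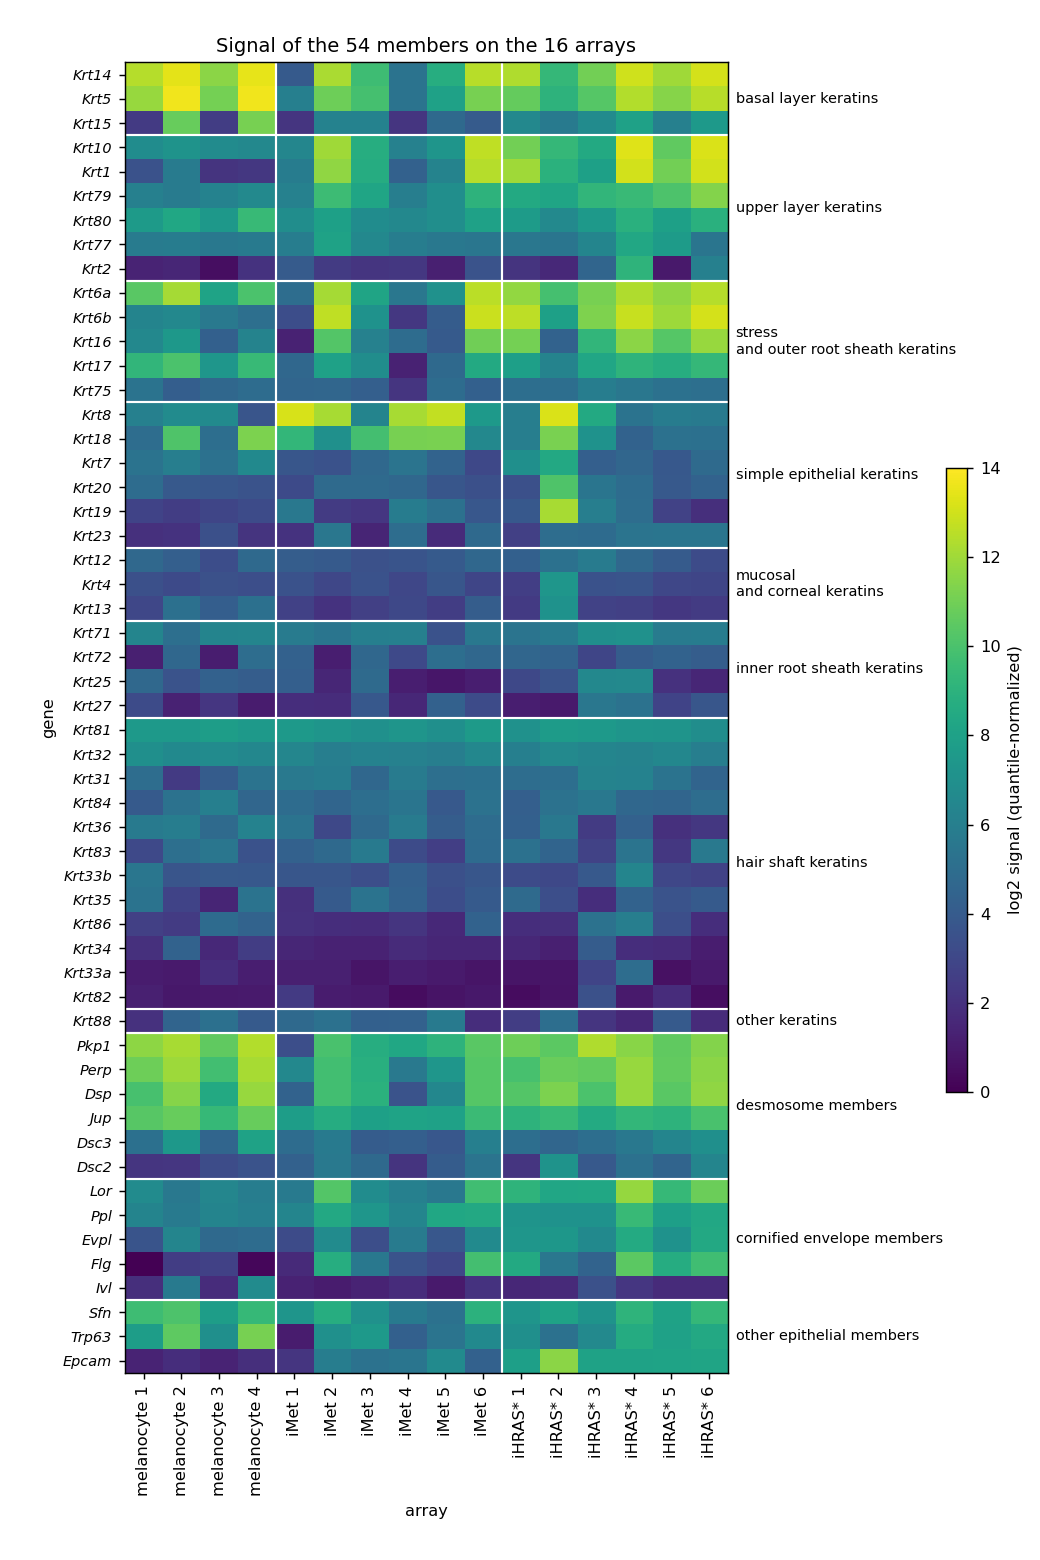
Log2 signal (colour, quantile-normalized) of the 54 members (vertical axis, grouped by class) on the 16 arrays (horizontal axis). Krt14 and Krt5 are bright on the 4 melanocyte arrays, where Krt1, Flg and Epcam are dark; iMet arrays 1 and 4 are dark in most epidermal members, and iHRAS* array 2 is the array on which Krt19, Krt20, Krt4 and Krt13 are bright.

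Krt14 and Krt5, the basal layer pair, were high in melanocytes and iHRAS* tumours and spanned a wide range in iMet tumours. Krt14, the acidic partner of basal cells, read 12.47, 13.40, 11.54 and 13.49 on melanocyte arrays 1 to 4. Krt14 on iMet arrays 1 to 6 gave 3.96, 12.23, 9.67, 5.33, 8.70 and 12.48, and on iHRAS* arrays 1 to 6 12.35, 9.30, 11.05, 12.99, 11.99 and 13.10. Only iMet arrays 1 and 4 fell below the cutoff for Krt14, while iMet arrays 2 and 6 lay within the melanocyte range. Krt5, its basic partner, read 11.85, 13.69, 11.05 and 13.69 in melanocytes, 6.02, 10.90, 9.86, 5.33, 8.01 and 11.13 in iMet tumours and 10.69, 9.06, 10.30, 12.39, 11.47 and 12.50 in iHRAS* tumours. The same iMet arrays, 1 and 4, were the lowest for Krt5, and each iHRAS* array lay between them and melanocyte arrays 2 and 4. Krt15, which marks basal cells and the hair follicle bulge, parted the melanocyte arrays among themselves: arrays 2 and 4 read 10.74 and 11.13, arrays 1 and 3 2.38 and 2.57. Krt15 ran from 2.14 to 6.21 in iMet tumours (median 4.41) and from 5.72 to 8.02 in iHRAS* tumours (median 6.64).

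Of the upper layer keratins Krt1, Krt10 and Krt79 were low in melanocytes and high in all iHRAS* tumours. Krt1, the basic keratin that replaces Krt5 as cells leave the basal layer, read 3.55, 5.83, 2.11 and 2.26 on the melanocyte arrays, all below the cutoff. Krt1 in iMet tumours gave 5.91, 11.68, 8.64, 4.33, 6.28 and 12.45, and in iHRAS* tumours 11.98, 8.96, 7.94, 13.05, 11.02 and 13.02. For Krt1 every iHRAS* array was above every melanocyte array, and so was every iMet array but array 4. Krt10, its acidic partner, read 6.83, 7.18, 6.75 and 6.52 in melanocytes, 6.44, 11.98, 8.74, 6.18, 7.29 and 12.65 in iMet tumours and 11, 9.32, 8.52, 13.31, 10.60 and 13.22 in iHRAS* tumours. For both genes iMet arrays 2 and 6 and iHRAS* arrays 4 and 6 were the highest of their groups, and for Krt10 iMet arrays 1 and 4 were below all melanocytes. Krt79, a keratin of the upper hair follicle and sebaceous duct, read 6.10, 5.83, 6.23 and 6.60 in melanocytes, 6.16, 9.59, 8.20, 5.97, 6.89 and 9.04 in iMet and 8.48, 8.22, 9.23, 9.48, 10.07 and 11.41 in iHRAS* tumours. Krt80 was above the cutoff on all 16 arrays, at 6.55 to 9.42, with melanocyte array 4 highest. Krt77 lay at 5.58 to 5.85 in melanocytes and was highest on iMet array 2 (8.06) and iHRAS* array 4 (8.40). Krt2, a late keratin of the granular layer, exceeded the cutoff on 1 array, iHRAS* array 4, at 9.13.

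Among the keratins of stressed epidermis and the outer root sheath, Krt6a and Krt17 were already high in melanocytes, while Krt6b was high in iHRAS* tumours. Krt6a read 10.44, 12.09, 8.11 and 10.05 in melanocytes, 5.0, 12.11, 8.19, 5.53, 7.07 and 12.54 in iMet tumours and 11.71, 9.90, 11.11, 12.35, 11.69 and 12.42 in iHRAS* tumours. Krt6b, a near-identical paralog, read 6.33, 6.53, 5.68 and 5.09 in melanocytes, 3.33, 12.67, 7.16, 2.25, 4.10 and 12.89 in iMet tumours and 12.63, 7.96, 11.31, 12.82, 11.96 and 13.11 in iHRAS* tumours. The iMet tumours covered both ends of the Krt6b scale, with arrays 2 and 6 among the values of the higher iHRAS* arrays and arrays 1, 4 and 5 below all melanocytes. Krt16, the acidic partner of Krt6, ran from 4.29 to 7.46 in melanocytes, 1.34 to 10.98 in iMet tumours (median 5.55) and 4.40 to 11.85 in iHRAS* tumours (median 10.70), where array 2 was the lowest. Krt17 read 9.23, 10.03, 7.34 and 9.43 in melanocytes, 4.69, 8.04, 6.84, 1.36, 4.77 and 8.48 in iMet and 7.90, 6.25, 8.27, 9.12, 8.74 and 9.31 in iHRAS* tumours, with iMet arrays 1, 4 and 5 below all other arrays. Krt75, a keratin of the companion layer of the hair follicle, stayed below the cutoff on all 16 arrays.

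Simple epithelial keratins showed another order of arrays. Krt8 read 6.08, 6.74, 6.69 and 3.69 in melanocytes and 13.17, 12.19, 6.33, 12.16, 12.70 and 7.52 in iMet tumours. Krt8 on iHRAS* arrays 1 to 6 gave 5.99, 13.22, 8.52, 5.34, 5.90 and 5.72. These values put 4 iMet arrays (1, 2, 4 and 5) and iHRAS* array 2 above 12 and the other 11 arrays below 9. Krt18, its partner, read 5.03, 10.16, 5.03 and 11.26 in melanocytes, 9.27, 7.02, 9.82, 11.15, 11.17 and 6.52 in iMet tumours and 5.98, 11.20, 7.15, 4.41, 5.21 and 5.14 in iHRAS* tumours. Krt8 and Krt18 did not always go together: melanocyte arrays 2 and 4 and iMet array 3 were high in Krt18 without a high Krt8, and iMet array 2 was high in Krt8 with Krt18 at 7.02. Krt19, a keratin of simple and ductal epithelia without a tail domain, was below the cutoff on 15 arrays and read 12.18 on iHRAS* array 2. Krt20, a keratin of gut epithelium and Merkel cells, likewise read 10.13 on that array and at most 5.42 elsewhere. Krt7, the basic keratin of ductal epithelia, was above the cutoff on 3 arrays: iHRAS* arrays 1 (7.0) and 2 (8.43) and melanocyte array 4 (6.62). Krt23 was below it on all 16 arrays. Beside this, of 6 Merkel cell markers on iHRAS* array 2, Krt20 and Atoh1 (6.78) exceeded every other array. Isl1 was highest there too, but at 5.90 (next 5.88) it was below the cutoff, as were Chga (3.83) and Syp (5.66). Sox2 (6.24) was the lowest of the iHRAS* arrays. The part of such cells was not tested.

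**Figure D2:**
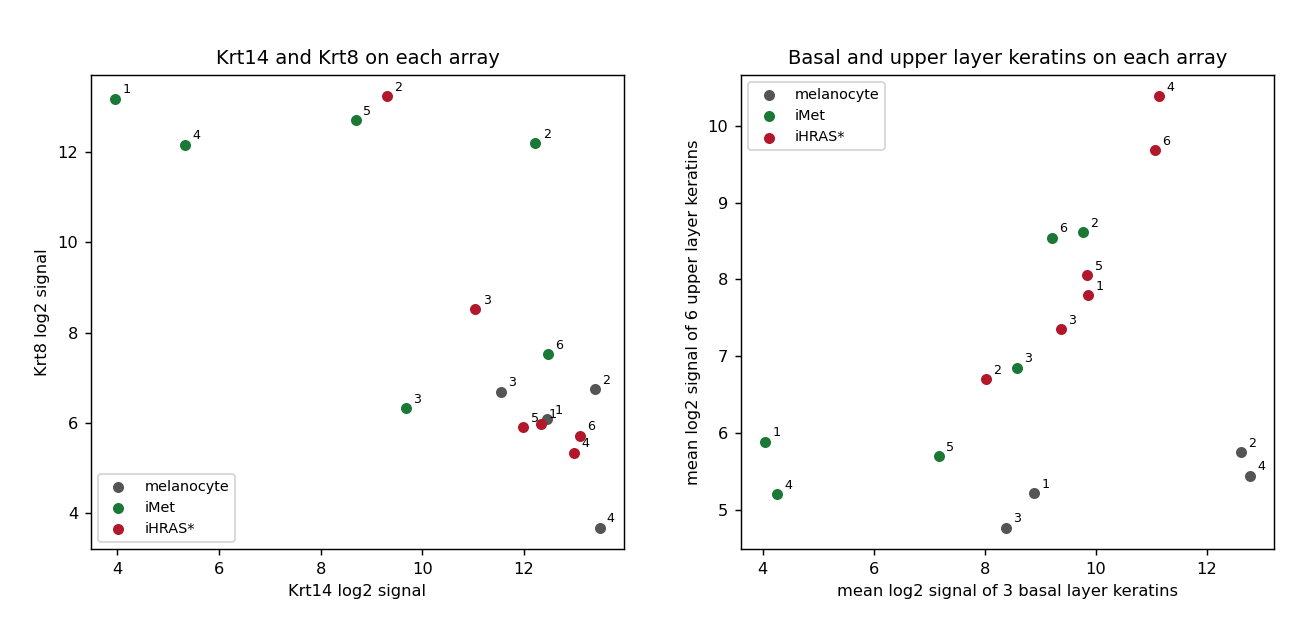
Left, Krt8 against Krt14 log2 signal on each of the 16 arrays (points, coloured by group and numbered by array); right, the mean log2 signal of the 6 upper layer keratins against that of the 3 basal layer keratins. iMet arrays 1 and 4 combine low Krt14 with high Krt8, iMet array 2 and iHRAS* array 2 are high in Krt8 with Krt14 at 12.23 and 9.30, and melanocyte arrays lie to the right of tumour arrays with the same upper layer mean.

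Mucosal and corneal keratins were below the cutoff on every array but iHRAS* array 2. Krt12, the corneal keratin, was below the cutoff on all 16 arrays: 4.74, 4.24, 3.31 and 4.78 in melanocytes, 4.11, 3.98, 3.49, 3.62, 3.95 and 4.70 in iMet and 4.27, 5.23, 5.84, 4.73, 4.03 and 3.18 in iHRAS* tumours. Krt4, the basic keratin of wet stratified epithelia, read 3.42, 3.13, 3.46 and 3.38 in melanocytes, 3.51, 3.0, 3.55, 2.96, 3.76 and 2.92 in iMet and 2.61, 7.33, 3.54, 3.62, 3.0 and 2.93 in iHRAS* tumours. Its partner Krt13 read 7.13 on iHRAS* array 2 and ran from 2.05 to 5.19 on the other 15. The other Krt13 probe set read 1.13 on iHRAS* array 2 and was below the cutoff on all 16 arrays. Krt4 and Krt13 were both above the cutoff on the same single array that was high in Krt19 and Krt20.

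Hair keratins gave little signal. Krt71, a basic keratin of the inner root sheath, read 6.38, 5.11, 6.31 and 6.36 in melanocytes, 5.81, 5.45, 6.03, 6.07, 3.53 and 5.59 in iMet and 5.41, 5.73, 6.99, 7.06, 5.83 and 5.85 in iHRAS* tumours. Krt72 of the same sheath was below the cutoff throughout: 1.25, 4.65, 1.14 and 4.99 in melanocytes, 4.35, 1.19, 4.65, 3.11, 5.06 and 4.65 in iMet and 4.63, 4.45, 2.94, 4.07, 4.42 and 4.12 in iHRAS* tumours. On iHRAS* arrays 3 and 4 the sheath keratins Krt25 (6.52 and 6.58), Krt27 (5.53 and 5.25) and Krt71 were each at their highest of the 16 arrays. Of the 12 hair shaft keratins, 2 had values about the cutoff or above it on every array. Krt81 read 7.53, 7.55, 7.80 and 7.55 in melanocytes, 7.51, 7.31, 7.05, 7.31, 6.96 and 7.64 in iMet and 7.07, 7.69, 7.54, 7.32, 7.23 and 6.85 in iHRAS* tumours, a range of less than 1 log2 unit over all arrays. Krt32 read 6.95, 6.67, 6.74 and 6.50 in melanocytes, 6.43, 6.01, 6.20, 6.13, 5.98 and 6.48 in iMet and 6.04, 6.59, 6.40, 6.24, 6.46 and 5.96 in iHRAS* tumours. Krt84, Krt36, Krt83, Krt35, Krt86, Krt34, Krt33a and Krt82 were below the cutoff on all 16 arrays, and Krt31 and Krt33b exceeded it on 1 array each, iHRAS* array 3 (6.24) and array 4 (6.34). Krt33a and Krt86 had their highest values on iHRAS* array 4 too (5.02 and 5.99). Krt88, whose class is not settled here, was below the cutoff throughout, at 1.99, 4.53, 5.18 and 3.95 in melanocytes, 4.81, 5.21, 4.30, 4.35, 5.71 and 1.81 in iMet and 2.56, 5.03, 2.18, 1.55, 3.99 and 1.73 in iHRAS* tumours.

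Of the 6 desmosome members Pkp1, Perp and Dsp were high in melanocytes and in iHRAS* tumours. In iMet tumours these 3 spread over a wide range. Jup varied less within groups (SD 0.65 in melanocytes, 0.66 in iMet and 0.48 in iHRAS* tumours) but ran from 7.78 to 10.73 over all arrays. Dsc2 and Dsc3 were below the cutoff on most arrays. Pkp1, a plaque protein of stratified epithelia, read 11.60, 12.17, 10.57 and 12.37 in melanocytes, 3.38, 9.97, 8.71, 8.32, 9.06 and 10.43 in iMet and 10.91, 10.45, 12.34, 11.51, 10.61 and 11.43 in iHRAS* tumours. Each iMet array lay below each of the other arrays for Pkp1, array 6 by the smallest margin and array 1 by the widest. Perp, a membrane protein of desmosomes, read 10.91, 11.97, 9.76 and 12.19 in melanocytes, 6.51, 9.77, 8.83, 5.68, 7.37 and 10.28 in iMet and 9.93, 10.80, 10.65, 11.86, 10.61 and 11.55 in iHRAS* tumours. Dsp, the plakin that ties keratin filaments to the plaque, read 9.92, 11.46, 8.52 and 11.84 in melanocytes, 4.41, 9.79, 8.91, 3.58, 6.47 and 10.30 in iMet and 10.27, 11.23, 10.03, 11.83, 10.44 and 11.68 in iHRAS* tumours. For Perp and Dsp alike 1 iMet array, array 6, reached into the iHRAS* range. Jup, which encodes plakoglobin and also serves adherens junctions, was above the cutoff on all 16 arrays and read 10.36, 10.73, 9.36 and 10.72 in melanocytes, 7.78, 8.68, 7.96, 8.12, 8.01 and 9.53 in iMet and 9.04, 9.42, 8.54, 9.29, 9.04 and 9.99 in iHRAS* tumours. The desmosomal cadherin Dsc3 was above the cutoff on melanocyte arrays 2 and 4 (7.47 and 8.06) and iHRAS* arrays 5 and 6, and Dsc2 on iHRAS* arrays 2 (7.17) and 6 (6.37) alone.

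Of the cornified envelope members Lor, Ppl, Evpl and Flg had their highest group mean in iHRAS* tumours, and Ivl in melanocytes. Lor, which encodes loricrin, the main protein of the envelope, read 6.77, 5.62, 6.41 and 5.94 in melanocytes, 5.77, 10.23, 6.80, 6.10, 5.59 and 9.72 in iMet and 9.10, 8.29, 8.33, 11.76, 9.37 and 10.87 in iHRAS* tumours. Ppl (periplakin), a scaffold of the envelope, read 6.33, 5.72, 6.29 and 6.04 in melanocytes, 6.37, 8.47, 7.33, 6.35, 8.32 and 8.44 in iMet and 7.27, 7.14, 7.15, 9.46, 7.88 and 8.38 in iHRAS* tumours. Every tumour array was above every melanocyte array for Ppl, and for Lor every iHRAS* array was. Evpl (envoplakin), the partner of periplakin, read 3.64, 6.35, 4.79 and 4.95 in melanocytes, 3.18, 6.76, 3.35, 5.81, 3.79 and 6.67 in iMet and 7.38, 7.43, 6.64, 8.57, 7.14 and 8.42 in iHRAS* tumours, where iMet arrays 2 and 6 exceeded iHRAS* array 3 and no other. Flg, which encodes the filament-aggregating protein of the granular layer, read -0.09, 2.55, 2.69 and 0.24 in melanocytes, 1.66, 8.74, 5.61, 3.59, 2.99 and 9.81 in iMet and 8.49, 5.56, 4.44, 10.45, 8.64 and 9.71 in iHRAS* tumours. Flg was below the cutoff on all melanocyte arrays and on 6 of the 12 tumour arrays. Ivl, which encodes involucrin, an early component of the envelope, read 1.87, 5.77, 1.78 and 6.77 in melanocytes, 1.35, 1.07, 1.40, 1.78, 1.0 and 2.06 in iMet and 1.58, 1.66, 3.46, 2.19, 1.75 and 1.70 in iHRAS* tumours. Ivl went against its class: its highest values, 1 of them above the cutoff, were on melanocyte arrays 4 and 2, and it was below the cutoff in all tumours.

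Of the other epithelial members, Trp63, the transcription factor p63 of stratified epithelia, read 7.80, 10.54, 6.99 and 11.13 in melanocytes, 1.05, 7.04, 7.60, 4.29, 5.38 and 6.63 in iMet and 6.95, 5.24, 6.56, 8.61, 8.01 and 8.45 in iHRAS* tumours. Sfn (stratifin), an adaptor of differentiating keratinocytes, read 9.64, 10.06, 7.81 and 9.37 in melanocytes, 7.28, 8.73, 7.08, 5.76, 5.24 and 9.02 in iMet and 7.30, 8.05, 7.20, 9.13, 8.04 and 9.32 in iHRAS* tumours. For both genes melanocyte array 3 was the lowest of its group, and the iMet range reached below the other 2 groups. Epcam, an adhesion molecule of simple epithelia and carcinomas, read 1.37, 1.84, 1.42 and 1.88 in melanocytes, 2.14, 5.96, 5.30, 5.46, 6.69 and 4.34 in iMet and 7.88, 11.54, 8.07, 8.06, 8.10 and 8.18 in iHRAS* tumours. The 3 ranges of Epcam did not overlap, and iHRAS* array 2 stood above the other 5 iHRAS* arrays, which lay between 7.88 and 8.18.

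**Figure D3:**
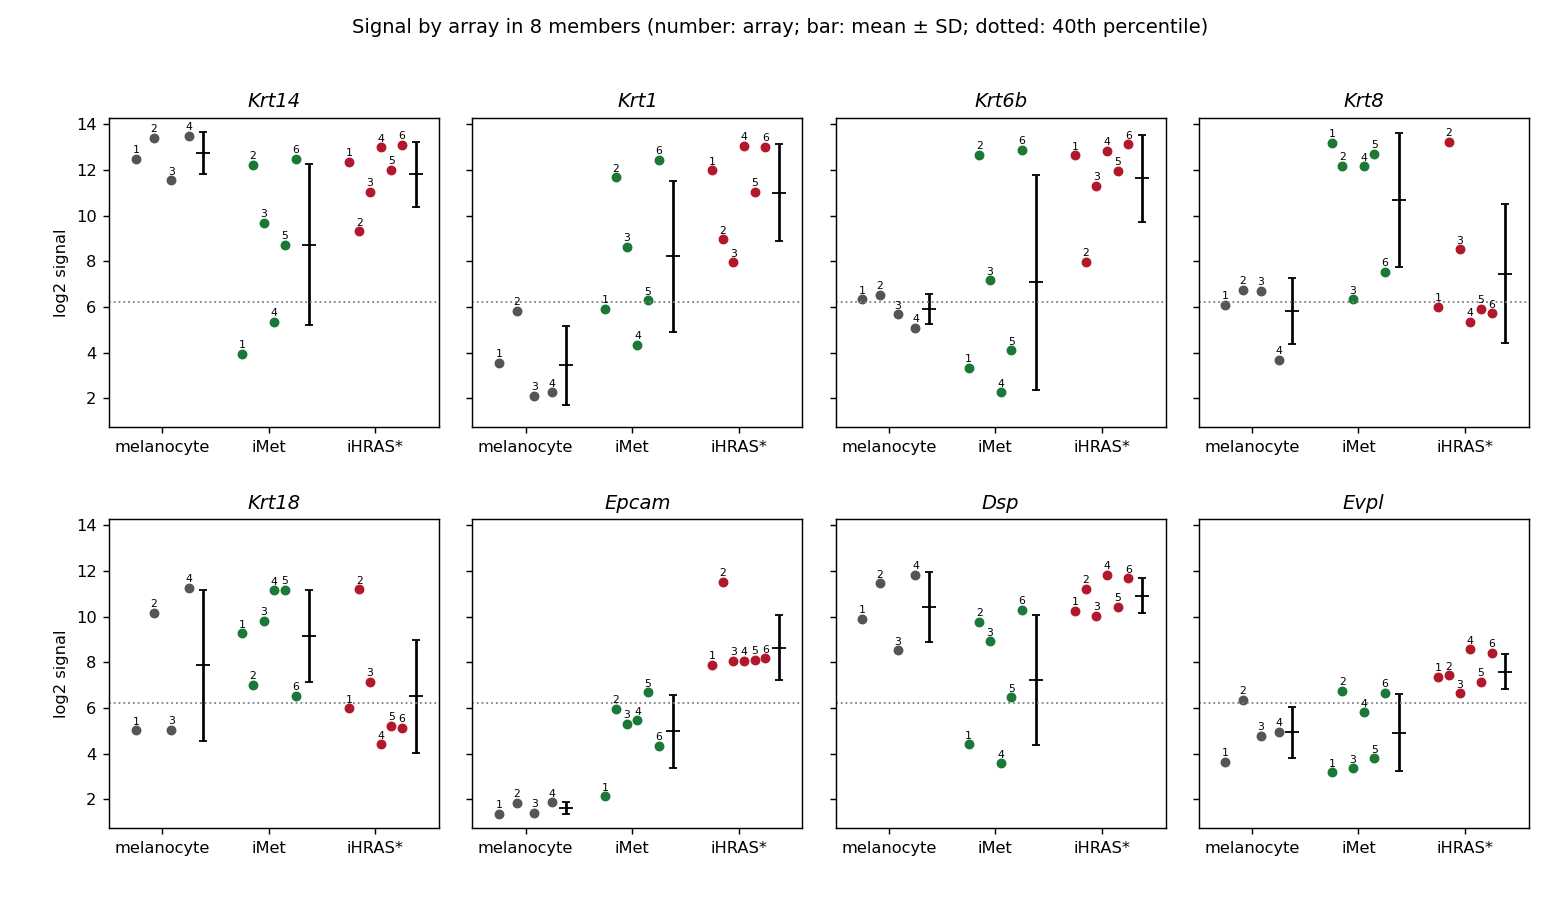
Log2 signal of Krt14, Krt1, Krt6b, Krt8, Krt18, Epcam, Dsp and Evpl on each array (points, numbered by array) in the 3 groups, with mean and SD (bars) and the 40th percentile of all values (dotted line). The iMet arrays spread over 3.96 to 12.48 for Krt14 and 2.25 to 12.89 for Krt6b, the Epcam ranges of the 3 groups are apart, and iHRAS* array 2 is the highest array of its group for Krt8, Krt18 and Epcam.

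Between the tumour models, epithelial members were lower in iMet than in iHRAS* tumours where a difference passed the test. Of the 6 simple keratins, Krt8 and Krt18 had differences of the other sign that did not pass. Of 54 members 25 passed the filter on dim genes, and 4 of these were called lower and 0 higher in iMet (limma, Benjamini-Hochberg adjusted p under 0.05); among all 8058 genes tested, 9.7% were called lower and 11.2% higher, or 782 and 905 genes, which became 448 and 1800 on the values as deposited. At an unadjusted p under 0.05 there were 13 members lower and 1 higher, Krt18, of 25, beside 1322 lower and 1553 higher of the 8058 genes. Epcam was 4.98 ± 1.59 (SD, n = 6) in iMet and 8.64 ± 1.43 (SD, n = 6) in iHRAS* tumours, a difference of -3.66 ± 0.79 (SE) or 12.6-fold (limma adjusted p = 0.00668). Evpl was 4.93 ± 1.67 and 7.60 ± 0.75, a difference of -2.67 ± 0.68 or 6.35-fold (limma adjusted p = 0.0153). Epcam was above the cutoff on 1 of 6 iMet and 6 of 6 iHRAS* arrays and Evpl on 2 and 6, so both entered the test through the group where they are high, and a fold against so dim a group takes the low values at face value. Perp differed by -2.83 ± 0.73, 7.09-fold (limma adjusted p = 0.0161), from means of 8.07 ± 1.84 and 10.90 ± 0.70. Dsp differed by -3.67 ± 1.08, 12.7-fold (limma adjusted p = 0.0306), from means of 7.24 ± 2.85 and 10.91 ± 0.77. The calls fell on 2 desmosome members, 1 envelope plakin and Epcam, and on no keratin.

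No keratin passed the test between the models, although several differed by more than 2 log2 units on average. Krt6b had a difference of -4.57 ± 1.87 (SE; limma adjusted p = 0.101), Krt14 one of -3.07 ± 1.39 (adjusted p = 0.134) and Krt1 one of -2.78 ± 1.44 (adjusted p = 0.187). Krt8 had a difference of 3.23 ± 1.56 (SE; limma adjusted p = 0.158) and Krt18 one of 2.64 ± 1.17 (adjusted p = 0.125). Group ranges did not overlap for 2 of the 25 members tested, Epcam and Pkp1 (-2.90, adjusted p = 0.0511), beside 10.7% of all genes tested. The median difference over all 54 members was -0.93, and over all genes 0.02. By class, the median over all members was -2.53 for basal, -1.66 for upper layer, -3.12 for stress and -0.04 for hair shaft keratins, -1.85 for desmosome and -2.25 for envelope members. It was -1.17 for the 6 simple keratins. Besides Krt8 and Krt18 these were Krt7, Krt19, Krt20 and Krt23, which were too dim to be tested and had lower means in iMet tumours. The Epcam call held under each of 21 other settings; Evpl and Perp lost theirs without iHRAS* arrays 5 and 6 alone (adjusted p = 0.0550 and 0.0602), and the Dsp difference missed the threshold when iMet array 1, 4 or 5, or else iHRAS* array 2, 4 or 6, was left out (adjusted p up to 0.0666). Without iHRAS* array 2, Krt18 (adjusted p = 0.0173) and Krt8 (0.0333) were called higher in iMet, with differences of 3.58 and 4.38, and without iMet array 2 the members called lower numbered 10.

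Against melanocytes, iMet tumours were lower in Krt5, Krt14 and Krt17, in 4 desmosome members and in Trp63 and Sfn, and higher in Krt1, Krt8, Epcam and Ppl. Of the 29 members tested in this comparison 10 were called lower and 4 higher, beside 18.7% and 16.4% of all 8651 genes tested (1622 and 1418 genes, or 2308 and 1176 with arrays centred on their medians); ranges did not overlap for 4 of the 29, beside 27.7% of all. Jup, at 8.35 ± 0.66 (SD, n = 6) against 10.29 ± 0.65 (SD, n = 4), differed by -1.95 ± 0.36 (SE), 3.86-fold (limma adjusted p = 0.000853). Perp differed by -3.13 ± 0.80, 8.76-fold (adjusted p = 0.00730), and Pkp1 by -3.36 ± 1.0, 10.3-fold (adjusted p = 0.0174). Krt5, at 8.54 ± 2.49 against 12.57 ± 1.33, differed by -4.03 ± 1.11, 16.3-fold (limma adjusted p = 0.0115). Of the 4 stress keratins tested Krt17 alone was called, while Krt6a (-1.76), Krt6b (1.16) and Krt16 (0.13) were not. Krt17 differed by -3.31 ± 1.12, 9.93-fold (adjusted p = 0.0319), and Trp63 by -3.78 ± 1.17, 13.8-fold (adjusted p = 0.0210). The iMet means of Krt17 (5.70) and Trp63 (5.33) were below the cutoff, which each gene passed on 3 of 6 iMet arrays. These 2 folds thus take dim values at face value. Krt32 had the smallest called difference, -0.51 ± 0.15, 1.42-fold (adjusted p = 0.0161), with ranges that did not overlap. The remaining members called lower were Krt14 (-4.0), Dsp (-3.19) and Sfn (-2.03), with adjusted p from 0.0377 to 0.0468.

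In the other direction, Epcam differed by 3.35 ± 0.80 (SE; limma adjusted p = 0.00470); it was below the cutoff on 4 of 4 melanocyte and 5 of 6 iMet arrays and entered the test through iHRAS* arrays, so no fold is given. Krt8, at 10.68 ± 2.95 (SD, n = 6) against 5.80 ± 1.44 (SD, n = 4), differed by 4.88 ± 1.63, 29.4-fold (adjusted p = 0.0299). The Krt8 mean in melanocytes was below the cutoff, so this fold takes dim values at face value. Krt1, below the cutoff on all melanocyte arrays, differed by 4.78 ± 1.54 (adjusted p = 0.0253), and Ppl by 1.45 (adjusted p = 0.0398). The high Krt8 values were those of 4 of the 6 iMet arrays, and the Krt1 values of iMet arrays 1, 4 and 5 lay within 4.33 to 6.28, beside a highest melanocyte value of 5.83. The median difference over all 54 members was -0.17, beside -0.12 over all genes, and classes went both ways: -4.0 for basal keratins and -2.54 for desmosome members, 1.35 for upper layer and 1.17 for simple keratins. Epcam and Jup kept their calls in all 18 and 20 other settings that tested them; 9 of the 14 lost theirs when 1 array was left out, among them Krt8 without melanocyte array 1 or 4 or iMet array 1, 2, 4 or 5 (adjusted p up to 0.0904), Krt1 without melanocyte array 1, 3 or 4 or iMet array 2 (up to 0.0681) and Trp63 without melanocyte array 2 or 4 (up to 0.0742). Krt14, Dsp and Krt17 lost theirs without melanocyte array 1, 2 or 4 or iMet array 1 or 5 (up to 0.0964, 0.127 and 0.0918), and Krt32 without melanocyte array 1 (0.0619). The Krt32 call was also lost on the values as deposited and without melanocyte arrays 1 and 3 together (limma adjusted p up to 0.299). Ppl and Sfn lost theirs without any of 8 and of 7 of the 10 arrays, one at a time (up to 0.103 and 0.113). Without melanocyte arrays 2 and 4 together, the brighter pair for basal keratins, Krt5, Perp and Pkp1 missed the threshold too (limma adjusted p = 0.159, 0.125 and 0.153).

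Against the same melanocyte arrays, iHRAS* tumours were higher in the upper layer keratins Krt1, Krt10 and Krt79, in 4 envelope members, in Krt6b and in Epcam, and no basal keratin was called. Of the 29 members tested 9 were called higher and 2 lower, beside 18.1% and 21.3% of all 8651 genes tested (1565 and 1839 genes, or 1341 and 2425 on the values as deposited and 1336 and 2570 with arrays centred), and ranges did not overlap for 9 of the 29, beside 25.3% of all; each of the 9 was above melanocytes. Epcam, at 8.64 ± 1.43 (SD, n = 6) against 1.63 ± 0.27 (SD, n = 4), differed by 7.01 ± 0.80 (SE; limma adjusted p = 1.3e-05). Krt1, at 11 ± 2.13 against 3.44 ± 1.72, differed by 7.56 ± 1.54 (limma adjusted p = 0.00148). Flg differed by 6.53 ± 1.56 (adjusted p = 0.00425), from a melanocyte mean of 1.35 ± 1.48. Epcam, Krt1 and Flg were below the cutoff on all 4 melanocyte arrays and entered the test through tumour arrays, so their differences take the dim deposited values at face value and no fold is given. Krt79 differed by 3.30 ± 0.72, 9.82-fold (adjusted p = 0.00240), and Krt10 by 4.17 ± 1.28, 18.0-fold (adjusted p = 0.0174). Krt6b differed by 5.73 ± 1.89, 53.0-fold (adjusted p = 0.0260), the 1 stress keratin called. The melanocyte means of Krt6b (5.91) and Krt79 (6.19) were below the cutoff, so these folds take dim values at face value. The envelope members called were, beside Flg, Lor by 3.43 ± 0.94 (adjusted p = 0.00967), Evpl by 2.66 ± 0.75 (adjusted p = 0.0117) and Ppl by 1.79 ± 0.52 (adjusted p = 0.0130). Evpl was above the cutoff on 1 of 4 melanocyte, 2 of 6 iMet and 6 of 6 iHRAS* arrays. It thus entered the test through iHRAS* arrays, and its difference takes dim values at face value.

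The members called lower were Jup, by -1.07 ± 0.36 (SE; limma adjusted p = 0.0285), and Krt32, by -0.43 ± 0.15 (adjusted p = 0.0323). Krt14 had a difference of -0.93 ± 1.43 (adjusted p = 0.629), Krt5 of -1.50 ± 1.11 (0.30), Dsp of 0.48 ± 1.18 (0.771) and Krt8 of 1.65 ± 1.63 (0.441), none of which passed the test. The median difference over all 54 members was 0.19, and over all genes -0.13. It was 3.0 for upper layer keratins and 2.66 for envelope members, beside -0.93 for basal keratins and -0.39 for desmosome members. Epcam, Flg, Krt1 and Krt79 kept their calls in every other setting that tested them, while Krt10, Lor and Ppl lost theirs without melanocyte arrays 2 and 4 together (limma adjusted p = 0.0950, 0.0990 and 0.117). Without melanocyte arrays 1 and 3 together, Krt10 and Evpl lost theirs (limma adjusted p = 0.0815 and 0.133), as did Krt10 without iHRAS* arrays 5 and 6 (0.0612). Jup lost its call without melanocyte array 1, 2 or 4 or iHRAS* array 3 (adjusted p up to 0.0924), Krt6b without melanocyte array 3 or 4 (up to 0.0625) and Krt32 without melanocyte array 1, 2 or 3 or iHRAS* array 1, 4 or 6 (up to 0.106). Krt6b also lost its call without iHRAS* arrays 5 and 6, and without either pair of melanocyte arrays (limma adjusted p up to 0.128). Jup lost its call without melanocyte arrays 2 and 4 too (0.323), and Krt32 in 13 of 20 other settings in all. Because both melanocyte comparisons share the same 4 arrays, their values are given side by side and their resemblance is not a result.

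**Figure D4:**
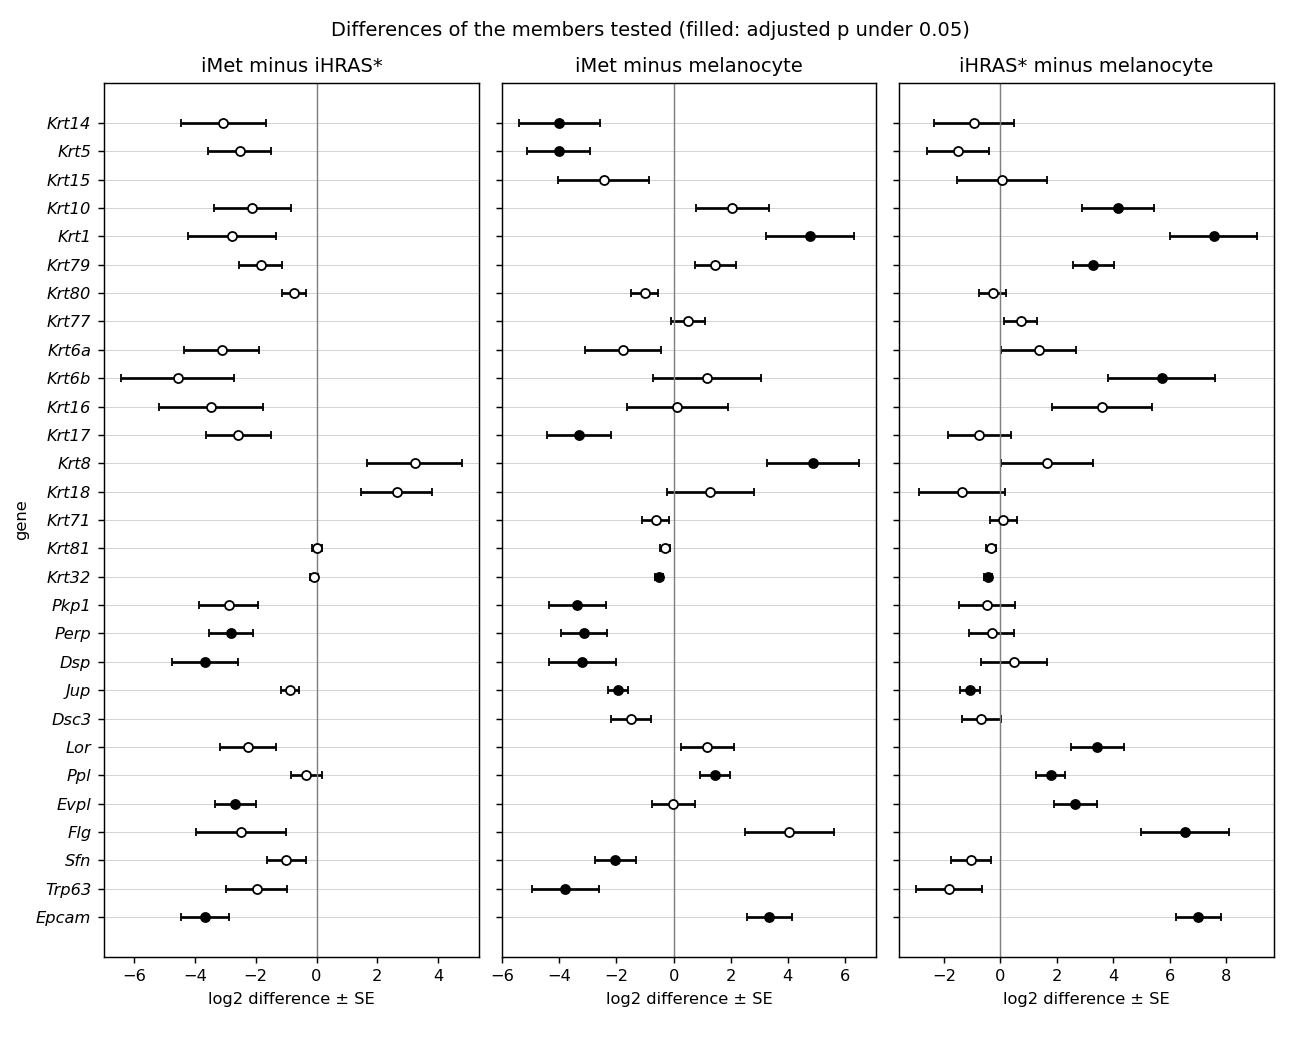
Log2 difference with its standard error (bars) of each member tested, in the 3 comparisons; filled points have a limma adjusted p under 0.05. Points left of 0 in the first panel have a lower mean in iMet than in iHRAS* tumours, where Epcam, Dsp, Perp and Evpl are filled; Krt8 and Krt18 lie to the right with bars of more than 1 log2 unit.

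Other genes of the same programmes were read from lists, some with few genes tested. For the counts in this and the next paragraph, the shares over all genes tested were as follows. Between the tumours, 9.7% were called lower and 11.2% higher in iMet. Against melanocytes, 18.7% were lower and 16.4% higher in iMet tumours, and 21.3% lower and 18.1% higher in iHRAS* tumours. Of 20 further cornification genes tested between the tumours, 1 was called, Sprr2d, a small proline-rich envelope protein, at -3.54 (limma adjusted p = 0.0468); the next were Lce1a1 (-1.99, 0.0510) and Sprr2h (-3.31, 0.0547). Against melanocytes, 9 of 22 were called higher in iHRAS* tumours and 0 lower, with Cst6, a protease inhibitor of the epidermis, at 6.63, and Krtdap at 6.99. In iMet tumours 1 of the 22 was called higher, Cst6 (5.08), and 1 lower, Casp14, the caspase of cornifying cells (-4.50). Of 3 further desmosome genes tested, Pkp3 was called lower in iMet than in iHRAS* tumours (-1.12, adjusted p = 0.0299), Pkp2 was lower in both tumours than in melanocytes (-1.61 and -1.86) and Pkp4 was higher in iMet tumours than in melanocytes (0.83). Of 10 hemidesmosome and basement membrane adhesion genes 7 were called lower in iMet tumours than in melanocytes, among them Col17a1 (-5.32), Lamb3 (-3.49) and Lama3 (-2.96); in iHRAS* tumours 3 were lower and 1, Plec, higher (0.81). Itga6, an integrin of the hemidesmosome, was the 1 of 8 called between the tumours (-0.91, adjusted p = 0.00136).

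Among epithelial junction genes, 2 of 4 tested were called lower in iMet than in iHRAS* tumours: Cdh1, which encodes E-cadherin (-2.86, limma adjusted p = 0.00336), and F11r (-1.22, adjusted p = 0.0109). Cdh1 was higher in both tumours than in melanocytes (2.19 in iMet and 5.05 in iHRAS*), while Cdh3, which encodes P-cadherin of basal cells, was lower in both (-4.23 and -3.56). Melanocyte arrays read 2.26 to 5.30 for Cdh1, all below the cutoff, and its iMet mean was 5.96. Among iMet arrays Cdh1 was above the cutoff on arrays 2 (6.78) and 6 (7.19) alone, and it was above it on all 6 iHRAS* arrays. It thus entered the test between the tumours through iHRAS* arrays. The Cdh1 differences, between the tumours and from melanocytes, take dim values at face value. Cdh3 means in iMet and iHRAS* tumours, 4.45 and 5.13, were below the cutoff too. Of 6 epithelial regulators tested between the tumours, Klf5 was called lower in iMet (-1.68, adjusted p = 0.00832) and Gata3 higher (1.98, adjusted p = 0.00990). Esrp1, an epithelial splicing factor, was higher than in melanocytes in both tumours, by 2.21 in iMet and 5.08 in iHRAS*. Its means of 2.22 in melanocytes and 4.43 in iMet tumours were below the cutoff, and it was not tested between the tumours. Both Esrp1 differences therefore take dim values at face value. Of 5 keratin-associated and hair follicle genes tested between the tumours, Lgr5 (-1.65) and S100a3 (-2.15) were called lower in iMet and Cd34, which vessels and fibroblasts also carry, higher (2.78). Intermediate filament genes of other families parted the models too: the neurofilament genes Nefl (-5.66, adjusted p = 7e-05) and Nefm (-5.03) and the stem cell filament gene Nes (-2.0) were lower in iMet than in iHRAS* tumours, and the nuclear lamin gene Lmnb1 higher (0.76), 4 of 8 tested.

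Further probe sets of a member did not always give the same size or sign. Lor had 3: the one used differed by 3.43 between iHRAS* tumours and melanocytes, another by 7.79 and the third by -0.14; between the tumours they gave -2.25, -4.10 and 0.21. The other Krt8 sets gave 5.26 and 4.53 between the tumours, beside 3.23 for the one used. Krt14 was read by a set of the kind that can match related genes; of the other sets, one gave -4.70 and the other -1.52 between iMet tumours and melanocytes, beside -4.0 for the one used. The 2 other sets of Dsp gave -3.85 and -2.08 between the tumours, beside -3.67. Those of Trp63, below the cutoff on all tumour arrays, gave -1.63 and 0.27 between the tumours, beside -1.97 for the one used. Between iMet tumours and melanocytes they gave -3.55 and -2.33, beside -3.78. Dsc2, not tested, gave -2.32 by its other set between the tumours, beside -0.50. Near-identical paralogs, such as Krt6a and Krt6b or the hair keratins, can share probes, so their values may not be fully separate.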

How the data were processed

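The 16 Affymetrix arrays were read from oligo-dT primed RNA. The authors deposited log2 values for 22690 probe sets, per the labels; the summarization and normalization behind them are not given in the sources used here. The array medians ran from 6.56 to 7.28, so the values were quantile-normalized after 64 control probe sets were left out. Of the probe sets, 20380 carry 1 gene symbol and 691 carry several, which were not used. A gene was tested where its signal passed the 40th percentile of all values on at least the number of arrays in the smallest group fitted. limma (3.58.1, R 4.3.3) was fitted to the whole table of genes, on 12 arrays between tumours and on 16 against melanocytes, with Benjamini-Hochberg adjustment over all genes tested, and was checked on simulated data. The number of arrays limits the precision.

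Values are printed per array for the 2 brightest members of each class, for Trp63, Epcam, Lor and Ivl and for called members; other lists by their 3 smallest p and by called members against their list's direction, with a few further genes chosen after their values were seen. The members and lists were chosen with earlier results of these data known. Same-numbered arrays of different groups did not deviate together (r of deviations from the group means -0.22 to 0.11), so replicate numbers were not used as pairs. Alternatives changed the scaling, the filter, the probe sets, the arrays fitted and the variance moderation, and left out arrays.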

Additional observations from a re-analysis of the deposited data

Results flagged for a closer look

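In the 29 members named by rule or called, 87 groups were examined for an array standing apart by Dixon's criterion, and 10 held one; chance gives about 1 in 20. iHRAS* array 2 was such an array for 3 members: Epcam was high there at log2 11.54, Krt4 was high at 7.33 and Krt6b was low at 7.96. iHRAS* array 3 was low for Krt72 at 2.94 and high for Ivl at 3.46, both below the cutoff. Among iMet tumours, Pkp1 read 3.38 on array 1, Krt71 read 3.53 on array 5 and Krt88 read 1.81 on array 6, each low in its group. Among melanocytes, Krt71 was low on array 2 at 5.11 and Krt81 was high on array 3 at 7.80.

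The members that differed between the tumour models in the test of that difference itself (limma) were 4: Dsp by -3.67, Epcam by -3.66, Perp by -2.83 and Evpl by -2.67, all lower in iMet tumours.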

How the results depend on the processing

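No alternative reversed a called difference, and the median over all members stayed within the spread between arrays in each. Between the tumours the members called higher in iMet ranged from 0 to 2 with 1 array left out, and those called lower from 3 to 10; without iHRAS* arrays 5 and 6 there was 1 lower. For iMet tumours against melanocytes, leaving out 1 array gave 1 to 4 higher and 5 to 11 lower. The replicate block gave 0 higher and 5 lower there, fitting these groups alone gave 6 lower, leaving out melanocyte arrays 2 and 4 gave 1 higher and 2 lower, and leaving out arrays 1 and 3 gave 1 higher. For iHRAS* tumours against melanocytes, leaving out 1 array gave 0 to 2 lower, and 1 was lower with arrays centred on their medians, with the filter at the 60th percentile, with these groups fitted alone, with the replicate block, with trended and robust variance moderation, without iHRAS* arrays 5 and 6 and without melanocyte arrays 2 and 4; the cause was not tested. On the values as deposited the median difference of all genes shifted by 0.16 between the tumours and by 0.14 for iMet against melanocytes. The median over members changed sign in 2 settings where it was near 0: 0.15 as deposited for iMet against melanocytes and -0.04 without iHRAS* array 4 for iHRAS* against melanocytes. Values below the cutoff carry little weight, and no background reading limits them here.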

Other observations

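The melanocyte arrays did not form one level. The mean of the 3 basal keratins was 8.90, 12.61, 8.39 and 12.77 on arrays 1 to 4, so arrays 2 and 4 were above arrays 1 and 3. Dsc3, a cadherin of basal desmosomes, read 5.14, 7.47, 4.56 and 8.06, and Krt13, a keratin of wet epithelia, read 2.98, 5.14, 4.17 and 5.19 on the same arrays. These Krt13 values were all below the cutoff, and the other Krt13 probe set, at 1.03, 0.96, 1.18 and 0.88, did not part the arrays in this way. The mean of the upper layer keratins also had arrays 2 and 4 above arrays 1 and 3, over a narrower range, at 5.22, 5.75, 4.77 and 5.44. Not every member did: Krt79 was lowest on array 2 (5.83) and Krt10 on array 4 (6.52). Krt1 and Krt2 were below the cutoff on all 4 arrays. The mean of the 10 fibroblast markers ran the other way, at 9.99, 8.16, 10.64 and 7.42, with arrays 1 and 3 above arrays 2 and 4, and its part was not tested.

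Within iMet tumours the classes of stratified epidermis moved by array. The mean of the upper layer keratins was 5.89, 8.61, 6.85, 5.20, 5.70 and 8.54 on arrays 1 to 6, that of the desmosome members 5.23, 8.27, 7.21, 5.33, 6.46 and 8.67 and that of the envelope members 3.66, 7.05, 4.90, 4.73, 4.34 and 7.34. Arrays 2 and 6 were the highest in all 3. The mean of the simple keratins, 6.17, 5.92, 4.89, 7.38, 6.51 and 4.85, was highest on array 4 and lowest on array 6. The 8 skeletal muscle markers ranged from 4.38 to 8.93 over the iMet arrays and from 3.61 to 7.84 over the iHRAS* arrays, and the 8 sebaceous gland markers from 5.23 to 6.42 and from 5.52 to 6.98.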
